A study of Mus musculus with 4 samples.

Results

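This account covers 10 genes of epidermal growth factor (EGF) receptor signalling, out of 21631 protein-coding genes on the chromosomes where peaks were listed, in a chromatin immunoprecipitation with sequencing (ChIP-seq) study of the transcription factor TEAD1. The 10 were the receptor genes Egfr and Erbb2, the ligand genes Tgfa, Hbegf, Areg, Ereg, Epgn, Btc and Nrg1, and the feedback inhibitor gene Errfi1. Coordinates were read as GRCm38, although the submitters' notes name mm39. Peaks belonged to a gene when their summit lay inside its annotated span or within 100 kb of either end. By that rule the genes had 70 of the 21285 peaks of one deposited list, called list 1, and 71 of the 21218 peaks of the other, called list 2. The genes were proposed with results of these lists in view, so the presence of peaks near them is a description and was not tested.

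The cells were cardiac fibroblasts from newborn mice, named only as a cell type in the labels. One culture condition carried a TEAD1 overexpression construct (OE-TEAD1) and the other its negative control (OE-NC). The sources used here give neither the vector and promoter of the construct, nor the antibody, nor the strain of the mice. Each condition gave 1 ChIP library and 1 input library, which is sonicated chromatin that was not immunoprecipitated, so 4 libraries formed 4 groups without replicates. The labels tie neither peak list to a condition, so no effect of overexpression is given and the lists are set side by side. Peak lists hold no expression values, and the labelled cell type could not be checked against its markers.

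EGF receptor ligands are made as membrane-anchored precursors that proteases release from the cell surface. Binding brings receptors of the ERBB family together in pairs, and the paired kinases switch on the RAS, ERK and PI3K pathways. TEAD factors bind DNA and recruit the coactivators YAP and TAZ, and several genes of this family, Areg among them, are known YAP and TEAD targets in other cells. In the heart, neuregulin 1 signals from endothelium to cardiomyocytes through ERBB2 and ERBB4.

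Every one of the 10 genes had a summit in list 1 and in list 2 under the 100 kb rule. The same rule found a summit for 70.9% of protein-coding genes in list 1, for 72.0% in list 2 and for 66.8% in both, and nothing is read from presence alone. With a window of 50 kb the 10 genes again all had a summit in each list, beside 58.2% of protein-coding genes in list 1, 59.0% in list 2 and 52.2% in both. With 10 kb it was 7 genes in list 1, 8 in list 2 and 7 in both (33.7%, 33.8% and 28.0% of protein-coding genes). Inside the spans alone it was Egfr, Erbb2, Ereg, Nrg1 and Errfi1 in both lists, with Areg added in list 2 (20.7% of protein-coding genes in list 1, 20.8% in list 2 and 17.1% in both). Among peaks with a −log10 q of at least 5, where q is the authors' false discovery estimate, each gene kept a summit within 100 kb in both lists (65.8% and 68.3% of protein-coding genes). Among the 5000 strongest peaks of a list it was 8 genes in each (37.0% and 36.7%).

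Their number of summits was higher than usual, with a median of 6 per gene in list 1 and 6.5 in list 2 against 2 over all protein-coding genes in each list. Per 100 kb of searched sequence the medians were 2.38 and 2.64 summits against 0.865 and 0.878, and each of the 10 lay above the median of all genes in both lists. Erbb2 did so only narrowly, at 0.888 in each list, a density reached by 49.0% and 49.5% of protein-coding genes. The genes are not independent, because Areg, Ereg and Epgn are neighbours and share 7 peaks in each list that were counted for more than 1 of them. The 10 were also proposed with results of these lists in view, so these counts and densities are a description and were not tested.

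**Figure D1:**
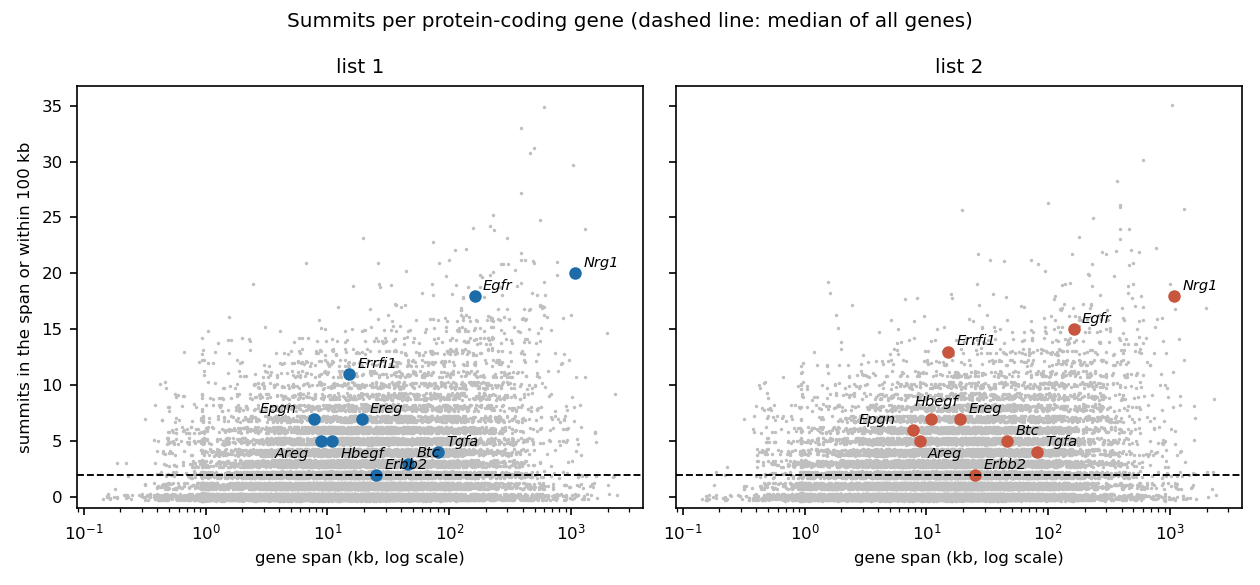
Each grey dot is a protein-coding gene, placed by the length of its span (x axis, kb, log scale) and its number of summits in the span or within 100 kb (y axis), with a small vertical jitter on the grey dots. Coloured points are the 10 genes. Nrg1 (20 and 18 summits), Egfr (18 and 15) and Errfi1 (11 and 13) lie highest, and Erbb2, with 2 in each list, lies on the dashed median.

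Taken peak by peak, the median folds were close to those of the whole lists, while the strongest peak per gene was higher than the median over genes. Fold over input is the authors' ratio of ChIP fragments at the summit to local input background, with 1 added to each. At 38 of the 70 list 1 peaks and 37 of the 71 list 2 peaks that background was the lowest value of the list, 1.72 or 1.87 fragments. Among such peaks of a list, the fold follows the fragment number alone. The fold had a median of 5.88 over the 70 list 1 peaks against 6.24 over the whole list. In list 2 the medians were 7.33 over the 71 peaks and 6.83 over all. Folds of 10 or more were found for 18 of the 70 peaks of list 1 (25.7%, Wilson 95% interval 16.9 to 37.0) against 22.9% of the list, and for 23 of the 71 of list 2 (32.4%, interval 22.7 to 43.9) against 28.1%. The strongest peak of each gene had a median fold of 13.3 in list 1 and 19.9 in list 2, against 10.3 and 11.5 over protein-coding genes with a summit. The strongest was taken from more peaks at the 10 genes, whose median was 6 and 6.5 summits against 2 over all genes. Areg, Ereg and Epgn also enter with the same peak. Stronger binding is therefore not read from this difference. Of the strongest 10% of each list by −log10 q the 10 genes had 4 peaks in list 1, at Nrg1 and Errfi1, and 5 in list 2, at Nrg1, Errfi1, Tgfa and Hbegf. Such peaks were 2128 of the 21285 in list 1 and, with ties left out, 9.92% of list 2. A peak of that strength was found within the same distance for 19.6% and 19.3% of protein-coding genes.

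Most sites were called in both lists. In list 1, 54 of the 70 peaks overlapped a list 2 peak by at least 1 bp (77.1%, Wilson interval 66.0 to 85.4), and in list 2, 54 of the 71 overlapped a list 1 peak (76.1%, interval 65.0 to 84.5). Over all peaks the shares were 70.9% and 71.4%. Summits of the 54 shared sites lay a median of 27.5 bp apart. Peaks called in 1 list only were weak in both, with folds of 3.67 to 6.98 in list 1 and 3.49 to 5.93 in list 2. They rested on at most 18 and 16 ChIP fragments. Their median folds were 4.66 in list 1 and 4.32 in list 2, close to the 4.73 and 4.88 of all peaks called in 1 list only.

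RefSeq transcription starts were at hand for 7 of the genes (Egfr, Erbb2, Tgfa, Areg, Epgn, Btc and Errfi1), and none of the 7 had a summit within 1 kb of a start in list 1 or list 2. Over all protein-coding genes in that table, 4.56% had one in list 1 and 4.21% in list 2, so most genes had none there and nothing particular to the 7 is read from this. The closest of the 7 was Erbb2, with a summit 1.44 kb downstream of its start in list 1 and 1.42 kb in list 2. Ereg, Hbegf and Nrg1 had no start in that table and were not scored, and peaks at the lower-coordinate end of Ereg are described below. No peak of either list overlapped the 300 bp promoter window of any of the 7. Among genes nearby, 4 had a promoter window that overlapped one of the peaks. Only that of the long noncoding RNA gene Gm19619, which lies beyond the 3′ end of Btc, was covered in both lists.

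A few promoter sequences are shown for the sequence at starts with and without a peak. Those of Erbb2 and Errfi1 are the only ones of the 7 genes that hold the TEAD core letters GGAATG on either strand, and no peak was called there. That of Gm19619 lies whole within a peak in both lists and holds neither those letters nor the AP-1 letters TGANTCA. Each run is the 250 bases before the transcription start, 5′ to 3′ in the direction of the gene, from RefSeq (GRCm38.p6), with a TEAD core match in capitals.
Erbb2 (chr11:98412234-98412483, plus strand): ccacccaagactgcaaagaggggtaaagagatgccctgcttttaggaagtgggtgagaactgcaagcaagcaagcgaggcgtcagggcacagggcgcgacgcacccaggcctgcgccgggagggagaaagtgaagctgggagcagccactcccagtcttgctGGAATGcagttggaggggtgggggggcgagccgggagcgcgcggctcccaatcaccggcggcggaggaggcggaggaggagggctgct
Errfi1 (chr4:150853546-150853795, plus strand, the more upstream of its 2 starts): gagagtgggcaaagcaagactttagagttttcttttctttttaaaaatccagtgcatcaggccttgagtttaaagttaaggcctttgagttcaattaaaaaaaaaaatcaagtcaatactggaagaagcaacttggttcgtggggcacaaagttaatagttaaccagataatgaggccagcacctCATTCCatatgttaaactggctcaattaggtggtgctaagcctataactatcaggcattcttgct
Gm19619 (chr5:91283077-91283326, minus strand): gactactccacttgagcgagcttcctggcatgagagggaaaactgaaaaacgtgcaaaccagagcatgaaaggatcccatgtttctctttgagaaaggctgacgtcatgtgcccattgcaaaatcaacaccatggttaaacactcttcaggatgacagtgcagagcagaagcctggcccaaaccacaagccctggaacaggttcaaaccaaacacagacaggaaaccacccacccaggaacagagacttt
In Erbb2 the match reads GGAATG and begins 88 bases before the start. In Errfi1 it reads CATTCC, the same letters on the other strand, and begins 65 bases before the start. Of all 32851 promoter windows of 300 bp in the table, 14.7% hold the TEAD core letters on either strand and 7.81% the AP-1 letters. Among the 8 windows of the 7 genes 2 held the former and 0 the latter. Sequence under the other peaks was not analysed here.

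Egfr encodes the receptor that all the EGF-like ligands of this set except neuregulin bind. It lies on chromosome 11 at 16752203 to 16913907 and had 18 summits in list 1 and 15 in list 2, of which 10 and 11 were inside the gene. Of its 12 shared sites 8 were inside the gene, 2 upstream of the start and 2 beyond the 3′ end. At 4.98 and 4.15 summits per 100 kb it was among the most densely covered genes, a density reached by 1.33% of protein-coding genes in list 1 and 2.45% in list 2.

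No single Egfr site dominated. The strongest of list 1 lay 92.2 kb inside the gene, at 16844253 to 16844785, with 37 fragments and a fold of 13.7 (95% interval 9.73 to 18.7, which like all intervals of folds here covers the counting error of the ChIP fragments only). The strongest of list 2 lay 102.1 kb inside, at 16853946 to 16854627, with 56 fragments and a fold of 19.9 (15.1 to 25.7). Each of these sites was called in the other list too, at 12.6-fold in list 2 for the first and 11.4-fold in list 1 for the second. Another site 58.1 kb inside the gene had nearly equal folds of 10.6 and 11.2. At 40.3 kb the folds were 7.49 and 11.5, and at 68.2 kb they were 8.42 and 9.53. The remaining peaks inside the gene ranged down to 4.54-fold in list 1 and 4.00-fold in list 2. Upstream of the start, a shared site at 16.8 and 16.6 kb had folds of 8.81 and 7.33, and one at 56.4 kb is described with the comparison of the lists. Beyond the 3′ end the summits lay nearer to Fbxo48 or inside Plek, a gene of blood cells, than to Egfr.

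Erbb2, on chromosome 11 at 98412484 to 98437716, encodes the receptor that binds no ligand of its own and acts as partner of the others. It had the fewest peaks, 2 in each list at the same places. The stronger, at 98403698 to 98404127 in list 1, lay 8.61 kb upstream of the start and nearer to Pgap3. It had 27 fragments in each list and folds of 10.3 (6.90 to 14.8) and 9.66 (6.48 to 13.9). The weaker, just downstream of the start, had 13 and 16 fragments and folds of 5.14 and 5.93. At both sites the counting intervals of the lists overlapped.

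Errfi1 encodes MIG6, a cytoplasmic inhibitor that binds active EGF receptor and blocks its kinase. It lies on chromosome 4 at 150853796 to 150868889 and, for a gene of 15.1 kb, had many peaks, 11 in list 1 and 13 in list 2. Its density of 5.11 and 6.04 summits per 100 kb was the highest of the 10 genes and was reached by 1.21% and 0.310% of protein-coding genes.

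The Errfi1 peaks were gathered upstream. Of 9 shared sites 7 lay upstream of the start, 1 inside the gene and 1 beyond its 3′ end. The strongest in both lists, at 150837280 to 150838033 in list 1, lay 16.2 kb upstream, with 57 and 64 fragments and folds of 21.3 (16.2 to 27.5) and 22.7 (17.5 to 28.9). Next came a site 54.0 kb upstream (18.7-fold and 19.2-fold) and one 45.1 and 45.2 kb upstream (14.3-fold and 16.7-fold). The site inside the gene, 6.95 and 6.97 kb from its start, had folds of 13.95 and 14.3. At these 4 sites the counting intervals of the lists overlapped. Weaker shared sites lay upstream at 71.3 kb (7.34-fold and 11.5-fold), at 84.6 kb (7.71-fold and 7.53-fold), at 47.8 kb (4.77-fold and 5.93-fold) and at 18.7 kb (4.45-fold and 6.98-fold). The shared site beyond the 3′ end had folds of 8.45 and 6.99. No other protein-coding gene was nearer to any of the upstream sites.

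**Figure D2:**
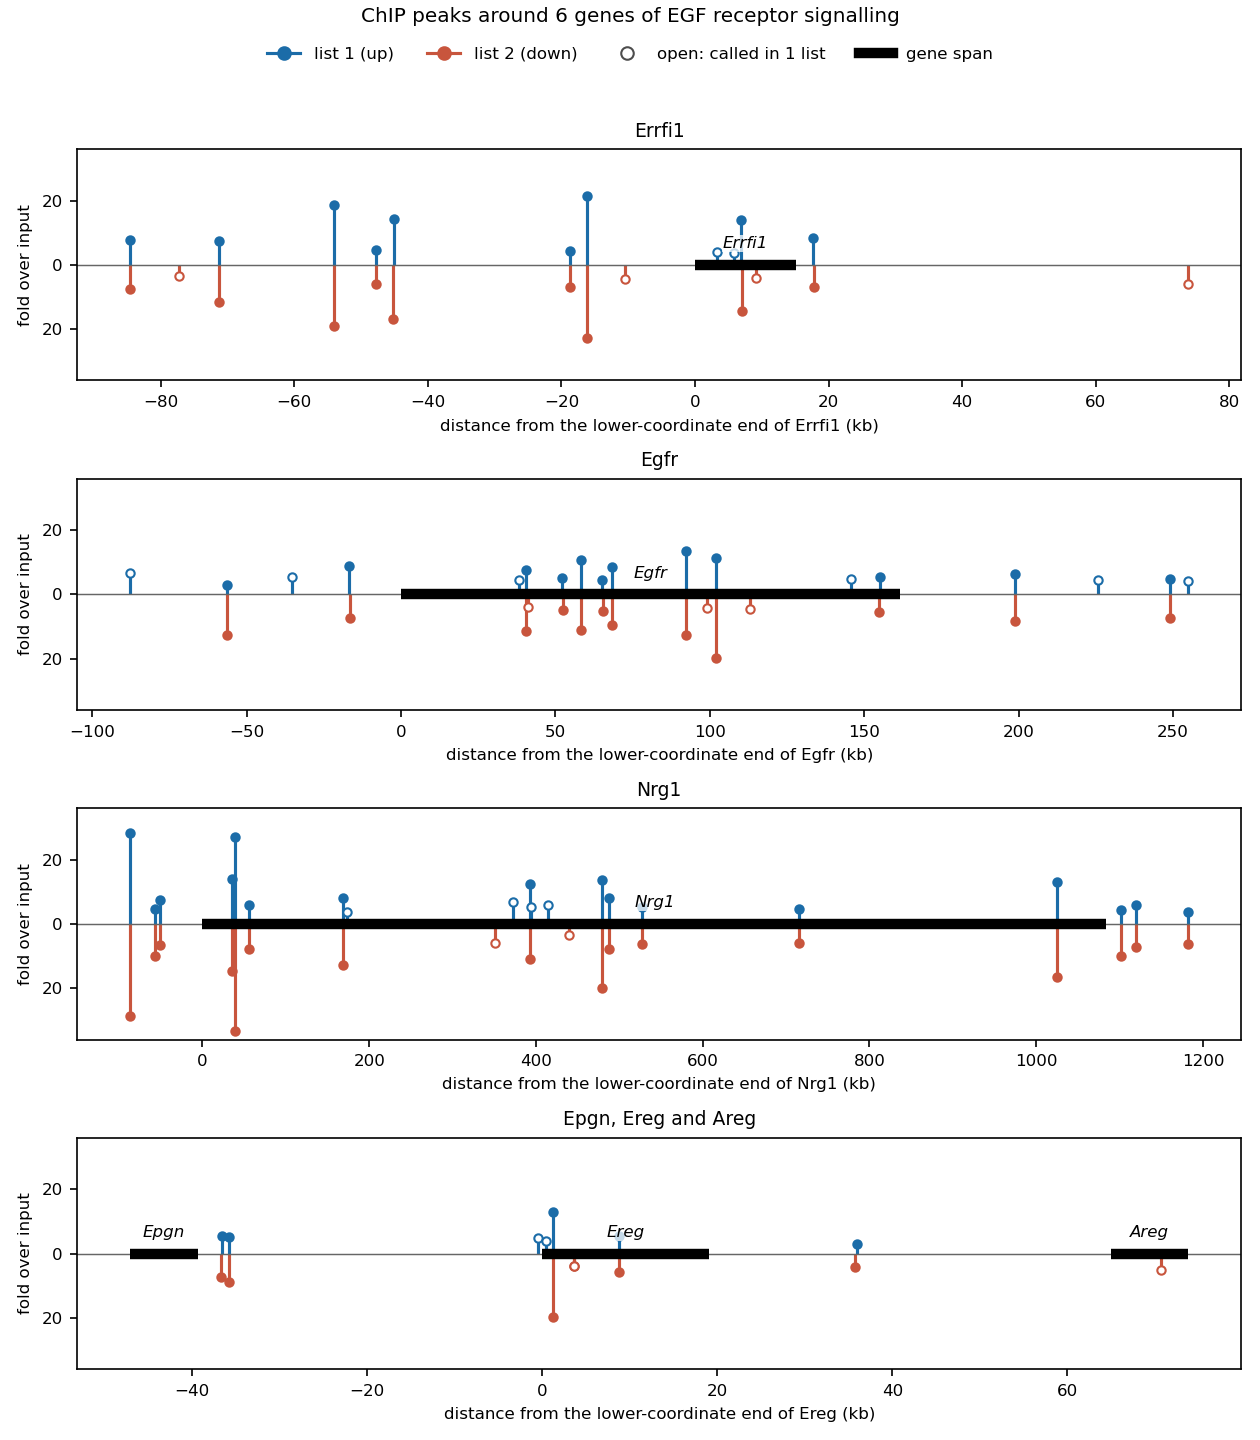
Peaks around Errfi1, Egfr, Nrg1 and the neighbouring genes Epgn, Ereg and Areg, by distance of the summit from the lower-coordinate end of the named gene (x axis, kb) and fold over input (y axis, list 1 upwards and list 2 downwards). Filled points are peaks called in both lists and open points peaks called in 1, all of which are short. The Errfi1 sites gather before the gene, those of Egfr within it, and the 2 tallest at Nrg1 lie around one end.

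Areg, Ereg and Epgn encode the ligands amphiregulin, epiregulin and epigen. They lie in a row on chromosome 5, with gaps of 39.4 kb from Epgn to Ereg and 46.0 kb from Ereg to Areg, and were covered together by 7 peaks in list 1 and 7 in list 2, with 5 sites shared. By the distance rule Areg had 5 summits in each list, Ereg 7 in each, and Epgn 7 in list 1 and 6 in list 2, but these are largely the same peaks.

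One site led the cluster. It lay inside Ereg, 1.18 and 1.20 kb from its lower-coordinate end, at 91075580 to 91076082 in list 1. It had 34 fragments and a fold of 12.9 in list 1 (9.01 to 17.8), and 56 fragments and a fold of 19.9 in list 2 (15.1 to 25.7). All other peaks of the cluster were under 10-fold. At the lower-coordinate end of Ereg, list 1 alone had 2 weak peaks, 0.53 kb outside the gene (4.77-fold, 12 fragments) and 0.41 kb inside it (4.04-fold, 10 fragments). Between Epgn and Ereg, 2 shared sites lay 2.69 to 3.57 kb beyond the 3′ end of Epgn, with folds of 5.36 and 5.25 in list 1 and 7.24 and 8.90 in list 2. Inside Areg, the best known TEAD target of the 3, a single weak peak was called in list 2 alone (5.23-fold, 14 fragments). The strongest peak of the cluster lay in Ereg by position and 63.8 kb from Areg. A second shared site inside Ereg had folds of 5.51 and 5.61, and one between Ereg and Areg 2.92 and 4.07.

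Btc encodes betacellulin and lies 208.8 kb beyond Areg, at 91357261 to 91402994. It had 3 summits in list 1 and 5 in list 2, none inside the gene and all beyond its 3′ end. Its strongest peak in both lists, 49.1 kb from the gene, had 18 fragments in each and folds of 6.71 (4.12 to 10.4) and 5.86 (3.60 to 9.09), the lowest best fold of the 10 genes. The only other shared site covered the Gm19619 promoter shown above and had folds of 5.87 in list 1 and 4.95 in list 2.

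Tgfa, on chromosome 6 at 86195038 to 86275744, encodes transforming growth factor alpha. It had 4 summits in each list at the same 4 sites, 2 on each side of the gene and none inside it. The strongest in list 1 lay 43.3 kb beyond the 3′ end, with 37 fragments and a fold of 13.95 (9.93 to 19.1), and was 11.2-fold in list 2. The strongest in list 2, at 86180454 to 86181169, lay 14.3 kb before the gene with 74 fragments and a fold of 26.2 (20.6 to 32.8). In list 1 that site had 47 fragments but a fold of 6.20 (4.59 to 8.20), beside a local input background of 6.74 fragments against 1.87 in list 2. The site 25.7 kb before the gene had folds of 5.88 and 9.25, and the one farthest beyond it, nearer to Fam136a, 4.94 and 4.54.

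Hbegf, on chromosome 18 at 36504927 to 36515805, encodes heparin-binding EGF-like growth factor. It had 5 summits in list 1 and 7 in list 2, none inside the gene, and 4 sites were shared. Its strongest peak in both lists, at 36521811 to 36522590 in list 1, had 41 and 62 fragments and folds of 14.2 (10.3 to 19.2) and 20.8 (16.0 to 26.6). That summit lay 6.37 kb from Hbegf and 5.89 kb from Slc4a9, a bicarbonate transporter family gene. The next, inside the neighbour Pfdn1, had folds of 10.2 and 15.3. A shared site inside Slc4a9 had folds of 5.88 and 9.90. Hbegf was the nearest protein-coding gene of 1 peak, called in list 2 alone, 7.06 kb from its span and 5.58-fold.

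Nrg1 encodes neuregulin 1, the ligand of ERBB3 and ERBB4, and is a very long gene of 1084.2 kb on chromosome 8 at 31807452 to 32891609. It had the most summits, 20 in list 1 and 18 in list 2, with 16 sites shared, of which 10 lay inside the gene. With the search space that this length brings, its density of 1.56 and 1.40 summits per 100 kb was reached by 27.9% and 32.7% of protein-coding genes.

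The 2 strongest sites of the whole gene set were at Nrg1. One lay outside the gene, 86.7 kb from its lower-coordinate end, at 31720261 to 31721128 in list 1. It had 90 and 86 fragments and folds of 28.2 (22.7 to 34.6) and 28.7 (23.1 to 35.4), equal within counting error. The other lay inside, 38.7 kb from the same end, at 31845774 to 31846436 in list 2, with 90 and 95 fragments and folds of 27.1 and 33.2 (27.0 to 40.5 in list 2). They ranked among the strongest 2.54% and 2.65% of list 1, and among the strongest 4.51% and 3.53% of list 2. Further sites inside Nrg1 at 479.5 kb (13.6-fold in list 1 and 19.9-fold in list 2) and at 1025.1 kb (13.2-fold and 16.4-fold) lay far from both. Those at 34.9 kb (13.95-fold and 14.6-fold), 392.6 kb (12.5-fold and 10.8-fold) and 168.7 kb (8.02-fold and 12.8-fold) were also near or above 10-fold. The remaining shared sites inside Nrg1 had folds of 4.77 to 8.04 in list 1 and 5.93 to 7.77 in list 2.

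**Figure D3:**
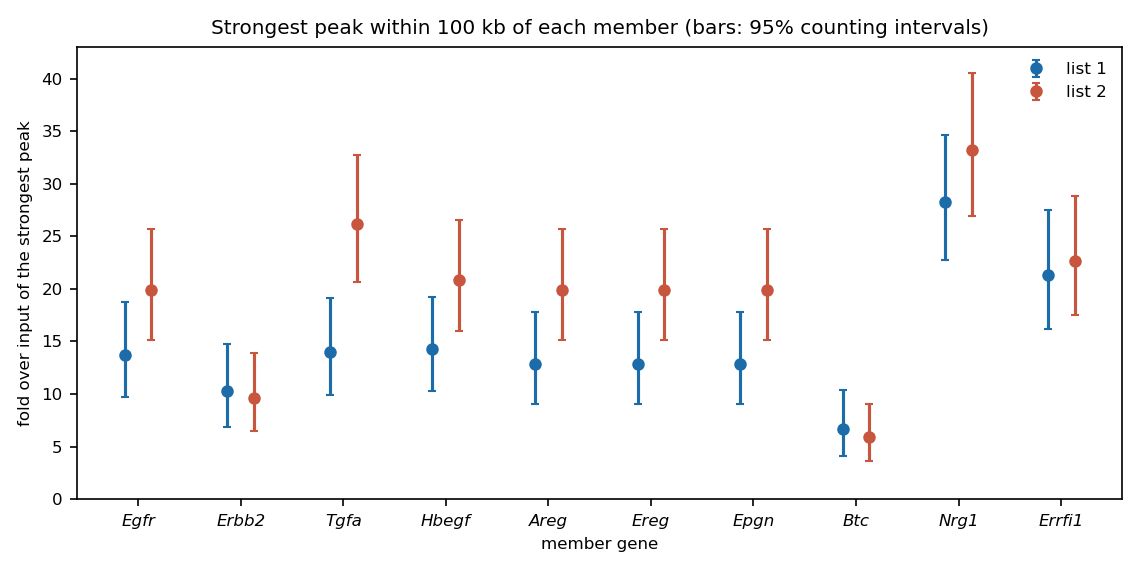
The strongest peak within 100 kb of each gene in list 1 and list 2 (y axis, fold over input), with exact Poisson 95% intervals of the ChIP fragment number as bars. Areg, Ereg and Epgn share a peak, and the intervals of the lists overlap at every gene except Tgfa. At Egfr, Tgfa and Nrg1 the strongest peaks of the lists are different sites.

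At the 54 shared sites the folds were mostly somewhat higher in list 2. It had the higher fold at 41 of them and list 1 at 13, and over all 15015 shared pairs list 2 was higher at 61.7%. The median ratio of list 2 to list 1 was 1.22 at the 54 sites and 1.11 over all pairs. Single ratios ran from 0.800 to 4.42. A ratio of at least 2 was found at 4 of the 54 sites, all higher in list 2, against 5.81% of all pairs. With 1 library behind each list, these ratios compare libraries, and no spread between replicates exists to judge them by.

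The counting intervals of the lists did not overlap at 3 of the 54 shared sites. Such sites were not counted over all 15015 pairs, so nothing particular to these genes is read from the 3. The first was the site upstream of Egfr at 56.4 kb (2.83-fold and 12.5-fold, with 18 and 42 fragments). Another was the Tgfa site before the gene described above. The last lay past the higher-coordinate end of Nrg1, inside Gm3985 (4.32-fold and 10.1-fold, with 19 and 28 fragments). At all 3 the local input background was higher in list 1, with 5.70 against 2.44 fragments at Egfr, 6.74 against 1.87 at Tgfa and 3.63 against 1.87 at Nrg1. The lowest background value of list 1 was 1.72 fragments and that of list 2 was 1.87, so the list 2 values at Tgfa and Nrg1 were the lowest possible. ChIP fragments alone differed less, by ratios of 2.33, 1.57 and 1.47, beside a median of 1.15 over all pairs. The background ratios of list 2 to list 1 were 0.427 at Egfr, 0.277 at Tgfa and 0.514 at Nrg1. Fold divides by this background, with 1 added, so the higher list 1 background enters the fold difference by definition. The source of the background difference was not tested. The Egfr ratio of 4.42 was reached or passed by 4 of all pairs, itself included.

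**Figure D4:**
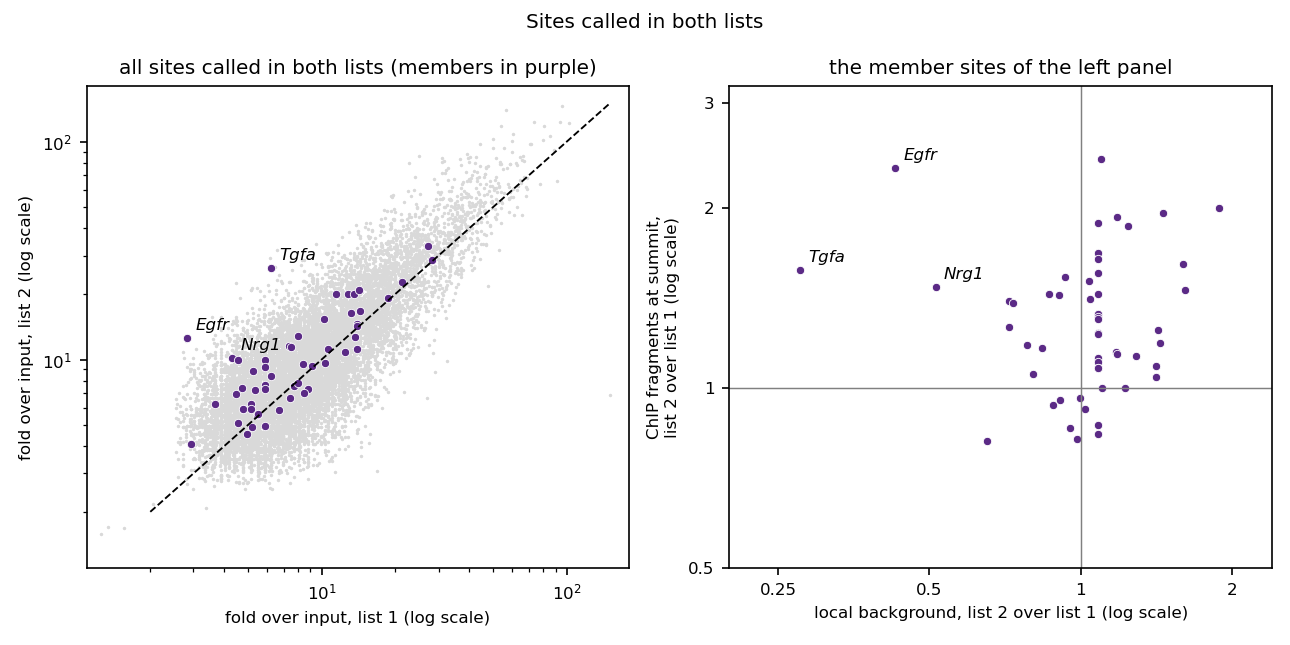
Left, fold over input in list 2 against list 1 (log scales) for all 15015 shared pairs in grey and the 54 sites of the gene set in purple, with equality dashed. Right, for the 54 sites, the ratio of ChIP fragments at the summit against the ratio of local input background, both list 2 over list 1 (log scales). The named Egfr, Tgfa and Nrg1 sites lie apart to the left, where list 1 had the higher background.

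Other genes of the pathway had peaks nearby about as often in both lists. Of 45 further genes of EGF receptor signalling, chosen from general knowledge, 42 had a summit in list 1 and 42 in list 2 (93.3%), beside 70.9% and 72.0% of all protein-coding genes. Their median was 3 summits per gene in each list against 2 over all genes, and the median fold of their strongest peak was 11.6 in list 1 and 12.9 in list 2 against 10.3 and 11.5. Only Erbb4, a neuregulin receptor, had none in either list. The 45 are not wholly separate from the 10. Grb7 had the same strongest peak as Erbb2 in each list, with folds of 10.3 and 9.66.

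Several of the 45 genes carried stronger peaks than any of the 10. Ctnnd1, encoding p120 catenin, had folds of 58.2 in list 1 and 54.4 in list 2 inside the gene, and the kinase gene Src 48.5 and 62.8. At Lrig1, a transmembrane inhibitor of ERBB receptors, the strongest peaks reached 52.4-fold and 64.9-fold and lay 42.8 kb outside its span. Eps8, an EGF receptor substrate that binds actin, had 40.0 and 53.0 inside the gene. Next by −log10 q came Stat3 in list 1 (33.0-fold) and Nck1 in list 2 (44.0-fold), both through summits nearer to another gene, Atp6v0a1 and Stag1. Among the remaining ligands and receptors Erbb3 reached 14.7-fold and 14.2-fold, at different sites, and the strongest peaks of Nrg2, Nrg3, Nrg4 and Egf were under 10-fold. Several of these summits lay nearer to other genes, as at Erbb3, where they were nearest to Myl6b and Rps26.

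A single protein-coding gene on another chromosome had the same numbers of summits as Egfr in both lists, 18 and 15. It was Retreg1, whose strongest peaks were 54.7-fold and 83.2-fold, far above those of Egfr. Of the peaks counted for the 10 genes, 56 of 70 in list 1 and 57 of 71 in list 2 had one of the 10 as the nearest protein-coding gene, and the other 14 in each list were nearer to a neighbour. At the distance limit, the summits just inside were those of Hbegf at 99.3 kb, inside Pfdn1 (9.11-fold and 9.31-fold). Just outside were those of Areg at 100.8 kb (5.25-fold and 8.90-fold), which counted for Ereg and Epgn.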

How the data were processed

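The submitters' processing notes name Trimmomatic 0.33, Bowtie 1.1.2 and MACS2. The sources used here give no MACS2 version or settings and no treatment of duplicate reads. The 2 deposited peak lists have no header. Per peak they give the authors' score, their fold over input (a ratio with 1 added to pileup and background), and their −log10 p and −log10 q. The score, which restates the −log10 q, was not used.

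The notes name the build mm39. On GRCm38.p6 RefSeq starts, summits per Mb within 1 kb of a start were 1.83 (list 1) and 1.71 (list 2) times those at 20 to 50 kb. Starts on mm39 were not scored, so these ratios do not choose between the builds. Coordinates were read as GRCm38, counted from 1. Fragment numbers at the summit and local background were solved from the deposited fold and p. They came out whole within 0.02 for 99.99% of peaks, with a median of 19 (list 1) and 22 (list 2) and a minimum of 8. Library totals are not in the lists. Intervals of folds are exact Poisson 95% intervals of the fragment number and cover counting error only, as do Wilson intervals of shares. Recovery and overlap steps were tested on simulated data. Python 3.11.15, scipy 1.17.1 and pandas 2.3.3 were used.

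Members, gene lists and rules were chosen with earlier results of these data known, and no test was made on them. Every member was named, with the peak of highest −log10 q per list and other peaks in the highest 10% of a list. Of the pathway list the 5 genes highest by −log10 q in each list were named. Other sites, genes and the 3 sites with separate intervals were named after their values were seen. Alternatives were window, peak threshold, overlap rule and the fold measure.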

Additional observations from a re-analysis of the deposited data

How the results depend on the processing

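No paired analysis was possible because each group holds 1 library and the peak lists carry no replicate. Counts of summits near the 10 genes, 70 in list 1 and 71 in list 2, fell to 37 and 36 with a window of 10 kb, to 31 and 30 inside the spans alone, and to 17 and 18 among the 5000 strongest peaks. The genes with a summit, 10 in each list, were 5 and 6 inside the spans alone, beside 20.7% and 20.8% of protein-coding genes. They were 7 and 8 with 10 kb, beside 33.7% and 33.8%. Shared percentages, 77.1% and 76.1%, rose to 87.0% and 91.2% among peaks with a −log10 q of at least 5. They were 67.1% and 66.2% with summits required within 100 bp, inside the Wilson intervals of the main shares. The shares over all peaks, 70.9% and 71.4%, belong to the main rule of 1 bp. None was counted over all peaks under the other rules, so these changes are not read as particular to the 10 genes. Pathway genes with a summit, 42 in each list, were 27 and 25 with 10 kb, beside 33.7% and 33.8% of protein-coding genes, and 26 and 24 with the 5000 strongest peaks, beside 37.0% and 36.7%. Ranking by fold changed the best fold of none of the 10 genes beyond its counting interval. A window of 10 kb did so in 5 of 15 cases, by construction through fewer peaks. The 15 leave out Tgfa and Btc in both lists and Areg in list 1, which had no summit within 10 kb. Leaving out the 1 added by the authors raised 18 of 20 best folds beyond it, up to 50.3 for Nrg1 in list 2. Weak peaks near 9 fragments limit what can be compared between the lists.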
